A study of Homo sapiens with 4 samples.

Results

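Divergent transcripts are RNAs that start beside the promoter of a protein-coding gene and run away from it on the opposite strand, and their symbols are the name of that partner gene followed by -DT. The count table held 586 genes with such a symbol among 61806 genes in all. Of these, 187 had counts that summed to 50 or more over the 4 libraries, and these 187 are described here together with their partners. A further 297 -DT genes had a sum of 1 to 49 and 102 had no count. The summed level was the only value used to choose them.

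Most active human promoters start RNA polymerase II in both directions. The RNA made upstream is usually terminated early at poly(A) signals close to its start and degraded by the nuclear exosome, while the transcript of the gene is spliced and kept. The -DT genes are the upstream transcripts that are stable and long enough to have been annotated, and most have no assigned function.

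The study compared MDA-MB-231, labelled as breast cancer cells, and MDA-MB-435, labelled as melanoma cells and called the melanoma line below, each as a control and after 6 h with 10 µM CPYPP. CPYPP is an inhibitor of DOCK guanine nucleotide exchange factors for Rac, and the study used it to induce paraptosis, a cell death with cytoplasmic vacuoles, in wild-type cells of both lines. RNA was selected with oligo(dT), and each of the 4 groups had 1 library, so no difference below has a replicate check. The label text on growth and treatment names MDA-MB-435 for all 4 samples, and no vehicle is named for the controls.

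The libraries held 17196385 to 22663954 counts, and in each line the CPYPP library was the shallower one. Of 10 melanocyte markers, 8 had at least 10 counts in each MDA-MB-435 library, with SOX10 at 3031 and 707 counts, against 3 and 4 markers in MDA-MB-231, where SOX10 had 0 and 1. Of 9 breast epithelial markers, 8 reached 10 counts in both MDA-MB-231 libraries, with EPCAM at 387 and 287, against 5 in the melanoma line, where EPCAM had 2 and 0 and CDH1 had 0. KRT7, KRT8, KRT19 and ELF3 were also higher in MDA-MB-231. ESR1 went the other way, with 2 and 9 counts in MDA-MB-231 and 24 and 20 in the melanoma line. Differences were smaller for GATA3, at 242 and 88 against 187 and 83, and KRT18, at 8212 and 5653 against 5740 and 4077. S100B and DCT, like SOX10, had at least 464 counts in both MDA-MB-435 libraries and at most 3 in those of MDA-MB-231. Other melanocyte markers did not separate the lines this way. MITF had 1585 and 690 counts in MDA-MB-231 and 1405 and 809 in the melanoma line, PMEL had 34 and 29 against 13 and 4, MLANA had 8 and 14 against 9 and 14, and TYR had 0 and 0 against 2 and 3. Mesenchymal markers reached 10 counts for 5 of 5 genes in MDA-MB-231 and 4 of 5 in the melanoma line. Stromal markers did so for 3 of 4 genes in MDA-MB-231 and 2 of 4 in the melanoma line, with DCN at 0 throughout. Of 4 blood markers only PTPRC reached 10 counts, at 36 in the MDA-MB-231 control library. The melanocyte sum in MDA-MB-435 was 10516 in the control and 5189 after CPYPP, and its part in the results was not tested.

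All 187 partners were found in the table, on the same chromosome and the opposite strand. The start of the -DT gene lay within 1000 bases of the partner's start in 169 pairs and within 5000 in 179, with a median distance of 146 bases. The spans of gene and partner overlapped in 57 pairs and were apart in 130. In all, 114 -DT genes overlapped at least 1 other annotated gene and 73 overlapped none. Whether reads were counted by strand was not given in the sources used here, so for overlapping genes the reads of both strands may not be told apart. Spliced exon length had a median of 3275 bases in the -DT genes and 5951 in the partners. In GENCODE v29 the same gene IDs were typed as antisense RNA for 90, lincRNA for 73, processed transcript for 14 and bidirectional promoter lncRNA for 6.

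The promoters of both sides were alike in composition. RefSeq promoter sequences of build GRCh38.p14, from 250 bases before to 50 after the start, were matched for 143 -DT genes and 160 partners and compared with all 27305 promoters of that table. Median GC content was 68.7% in the -DT promoters and 68% in the partners' promoters, against 58.3% in all promoters, and the median CpG observed over expected ratio was 0.904, 0.893 and 0.580. The GC box (GGGCGG, either strand, as for all motifs here) stood in 71.3% of -DT promoters, 71.2% of partner promoters and 44.6% of all promoters. The ETS motif CCGGAAG stood in 24.5%, 31.2% and 10.7%, the NRF1 motif (GCGCA and GCGC with any 1 base between them) in 21.0%, 21.2% and 6.28%, and the YY1 motif ATGGCGGC in 8.39%, 10.6% and 3.21%. TATAAA was less frequent, at 3.5%, 6.25% and 12%, and CCAAT was near the background, at 35.7%, 40.6% and 35.7%. Among stress-response motifs, the antioxidant response element TGACNNNGC stood in 16.1%, 18.1% and 13.6%. The amino acid response element TGATGNAA stood in 0.699%, 1.88% and 3.67%, and the heat shock element (GAA, TTC and GAA with any 2 bases between each) in 0 of the 143, 0 of the 160 and 0.487% of all promoters. The windows of a pair can hold the same DNA: of 137 pairs with both starts in RefSeq, 100 had them within 300 bases.

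The promoter windows of 5 -DT genes and 1 partner whose counts are given below are printed 5′ to 3′ on the gene's own strand, with every motif named above in capitals. ZFAND2A-DT (chr7:1160124-1160423, plus strand) and ZFAND2A (chr7:1160147-1160446, minus strand) are the pair with the largest change of the partner, and their windows are largely the same DNA read from both strands. HK2-DT (chr2:74833938-74834237, minus strand) and GOT1-DT (chr10:99430686-99430985, plus strand) were lower after CPYPP in both lines. WAPL-DT (chr10:86521697-86521996, plus strand) was lower in MDA-MB-435 beside a partner that rose, and LYPLAL1-DT (chr1:219173739-219174038, minus strand) had the largest rise in that line.
ZFAND2A-DT: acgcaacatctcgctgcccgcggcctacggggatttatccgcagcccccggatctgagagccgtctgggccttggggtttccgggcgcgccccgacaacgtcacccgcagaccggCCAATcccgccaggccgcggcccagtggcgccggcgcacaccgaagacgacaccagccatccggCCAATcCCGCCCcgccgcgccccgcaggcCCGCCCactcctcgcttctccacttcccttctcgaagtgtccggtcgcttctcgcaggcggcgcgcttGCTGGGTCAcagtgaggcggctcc
ZFAND2A: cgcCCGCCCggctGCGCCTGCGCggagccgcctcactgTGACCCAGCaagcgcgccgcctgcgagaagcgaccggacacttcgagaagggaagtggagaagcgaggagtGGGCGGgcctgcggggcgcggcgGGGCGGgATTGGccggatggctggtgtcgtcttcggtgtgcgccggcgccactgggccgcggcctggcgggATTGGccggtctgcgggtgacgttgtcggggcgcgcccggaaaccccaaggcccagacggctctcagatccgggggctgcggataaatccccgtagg
HK2-DT: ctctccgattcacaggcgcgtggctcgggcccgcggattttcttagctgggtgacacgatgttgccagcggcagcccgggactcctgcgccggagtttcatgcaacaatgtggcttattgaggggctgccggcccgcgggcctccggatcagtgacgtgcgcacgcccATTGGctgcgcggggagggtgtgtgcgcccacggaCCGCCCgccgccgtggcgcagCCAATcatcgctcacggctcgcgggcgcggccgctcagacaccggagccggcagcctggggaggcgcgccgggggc
GOT1-DT: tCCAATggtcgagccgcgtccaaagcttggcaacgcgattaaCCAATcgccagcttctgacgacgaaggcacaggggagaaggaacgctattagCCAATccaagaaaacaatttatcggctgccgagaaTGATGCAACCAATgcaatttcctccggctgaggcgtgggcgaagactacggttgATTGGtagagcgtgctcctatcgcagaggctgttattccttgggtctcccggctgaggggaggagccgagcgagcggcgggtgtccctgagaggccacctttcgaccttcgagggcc
WAPL-DT: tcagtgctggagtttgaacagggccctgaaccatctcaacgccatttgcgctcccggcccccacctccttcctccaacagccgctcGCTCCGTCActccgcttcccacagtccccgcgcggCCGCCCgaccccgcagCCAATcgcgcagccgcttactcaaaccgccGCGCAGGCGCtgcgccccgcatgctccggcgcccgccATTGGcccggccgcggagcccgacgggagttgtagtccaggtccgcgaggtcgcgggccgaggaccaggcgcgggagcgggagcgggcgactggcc
LYPLAL1-DT: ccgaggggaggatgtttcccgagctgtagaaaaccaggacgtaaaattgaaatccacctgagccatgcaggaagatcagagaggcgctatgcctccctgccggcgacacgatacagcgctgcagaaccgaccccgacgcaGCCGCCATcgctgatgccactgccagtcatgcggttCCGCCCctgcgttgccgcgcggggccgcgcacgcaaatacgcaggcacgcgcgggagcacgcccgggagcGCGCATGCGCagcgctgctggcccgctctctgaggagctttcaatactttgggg
In the ZFAND2A-DT window the capitals are 2 CCAAT boxes, 2 GC boxes and an antioxidant response element, and the ZFAND2A window holds these on the other strand with a further GC box and an NRF1 motif. The HK2-DT window has CCAAT, a GC box and CCAAT. The GOT1-DT window has CCAAT boxes and 1 amino acid response element that abuts a CCAAT box. The WAPL-DT window has an antioxidant response element, a GC box, an NRF1 motif and CCAAT boxes, and the LYPLAL1-DT window a YY1 motif, a GC box and an NRF1 motif. A match describes the letters only.

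The -DT genes were expressed far below their partners. As RPKM, counts per kb of exon scaled to the library size, the median -DT gene stood at 0.462 in the MDA-MB-231 control and 0.862 in the MDA-MB-435 control, and the median partner at 8.24 and 8.79. The median -DT gene reached 6.21% of its own partner's level per length in the MDA-MB-231 control and 8.89% in the MDA-MB-435 control. After CPYPP these shares were 4.78% and 6.49%. Summed over the 187 genes, -DT counts made up 0.0626% of the MDA-MB-231 control library and 0.0525% of the CPYPP library, and 0.0980% and 0.0628% in the melanoma line. The partners' summed counts were 2.141% and 2.196% of the MDA-MB-231 libraries and 2.03% and 2.04% of the MDA-MB-435 libraries. At least 10 counts were reached by 165 and 136 -DT genes in the MDA-MB-231 control and CPYPP libraries and by 177 and 163 in the melanoma line.

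Among the 8 highest levels in RPKM, averaged over the 4 libraries, were those of ZDHHC12-DT, GAS6-DT, APCDD1L-DT, TRIM8-DT, CAMSAP1-DT, MRPL20-DT and EMSY-DT. ZDHHC12-DT, beside a palmitoyltransferase gene, stood at 12.3 and 9.74 RPKM in MDA-MB-231 control and CPYPP and at 4.46 and 5.36 in the melanoma line. GAS6-DT, beside the gene of the ligand of the AXL, TYRO3 and MERTK receptors, stood at 4.67, 4.13, 7.94 and 4.32 in the same order. ZDHHC12-DT was higher in MDA-MB-231, and the MDA-MB-435 control was the highest library for GAS6-DT. In the control libraries, the level per length exceeded that of the partner for 7 -DT genes in MDA-MB-231 and 15 in the melanoma line, among them GAS6-DT, whose control level in the melanoma line was 152% of that of GAS6.

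After CPYPP the -DT genes were lower on balance in both lines, while the medians of their partners lay near 0. Fold changes are CPYPP over control with libraries scaled by the trimmed mean of M values (TMM), and a gene passed when it changed over 2-fold with an adjusted p under 0.05 in an exact binomial test on the reads, which compares 2 libraries and not 2 conditions. In MDA-MB-231, 169 -DT genes reached 10 counts in the control or the CPYPP library and were tested. Of these, 17 were lower and 6 higher, which is 10.1% and 3.55%, against 3.09% and 4.22% of all 16441 genes tested. In MDA-MB-435, 178 were tested, and 30 were lower and 2 higher, which is 16.9% and 1.12%, against 6.52% and 3.17% of all 16527 genes tested. With at least 10 counts required in both libraries, 6 lower and 5 higher calls were left in MDA-MB-231 and 23 and 2 in the melanoma line, since most of the lower calls in MDA-MB-231 reached 10 counts in the control library alone. These calls hold counting error only. When libraries were taken to vary with a biological coefficient of variation of 0.2, 1 lower and 0 higher calls were left in MDA-MB-231 and 4 and 1 in the melanoma line. The shares of all genes given above belong to the first filter. They were not counted with 10 counts in both libraries or with this variation, so an excess of lower calls cannot be read there. In bulk RNA, fewer cells and less RNA per cell cannot be told apart.

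The median log2 fold change of the -DT genes was −0.20 in MDA-MB-231, with the middle 50% between −0.63 and 0.06, and −0.51 in the melanoma line, between −0.90 and −0.15. Over all genes tested the medians were −0.011 and −0.015. Values were below 0 for 114 of 169 -DT genes (67.5%) in MDA-MB-231 and 142 of 178 (79.8%) in the melanoma line, against 51.2% and 51.4% of all genes tested. The partners' medians were 0.034 and 0.11, which became −0.036 and −0.041 when libraries were scaled by total counts, and −0.014 and −0.0034 by the upper quartile, while the -DT medians remained below 0 under every scaling tried. Scaling by total counts moved the median of all genes in MDA-MB-435 to −0.16, and by the upper quartile to −0.13.

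Other noncoding genes with a summed count of 50 or more were also lower. The antisense genes, whose symbols end in -AS and a number, had medians of −0.14 over 397 tested in MDA-MB-231 and −0.41 over 419 in the melanoma line, and 9.07% and 16.2% of them were called lower. The LINC genes, intergenic noncoding genes, had medians of −0.16 over 182 and −0.52 over 206, with 9.89% and 28.2% called lower. All other genes at that level had medians of −0.0028 and 0.016, with 2.34% and 5.05% lower. The -DT values thus lay beside those of the other noncoding lists, and the difference between these lists was not tested.

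**Figure D1:**
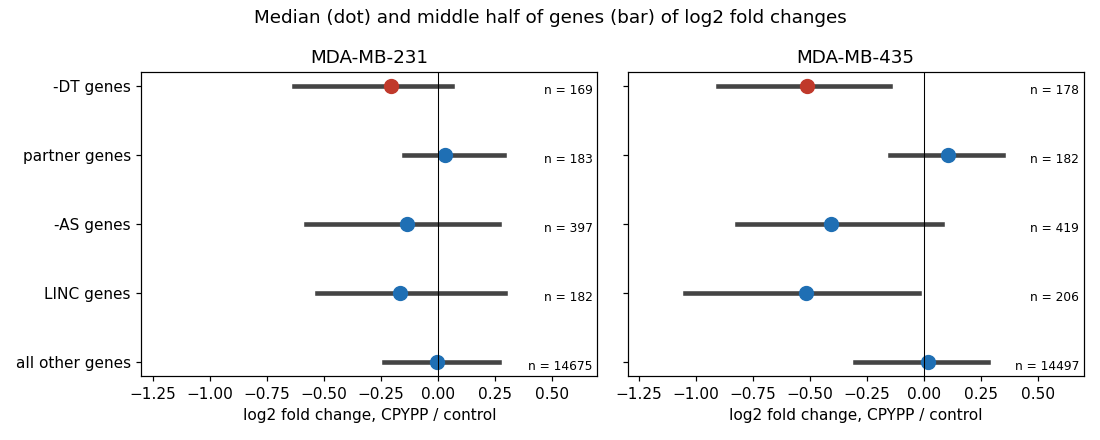
Log2 fold change of CPYPP over control (x axis) for -DT genes, their partners, -AS genes, LINC genes and all other genes with a summed count of 50 or more, in MDA-MB-231 (left) and MDA-MB-435 (right), with the median as a dot and the middle 50% of genes as a bar. The -DT median lies at −0.20 and −0.51, left of the partners at 0.034 and 0.11 and beside the -AS and LINC medians.

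In both lines, 10 -DT genes were called lower, 6.25% of the 160 tested in both, against 0.989% of all 14262 genes tested in both. None was called higher in both, against 1.04% of all genes. None was called in opposite directions, against 0.0912% of all genes that rose in MDA-MB-231 and fell in the melanoma line, and 0% the other way round. Of the 10, only HK2-DT, GOT1-DT and TFIP11-DT reached 10 counts in all 4 libraries. The others had fewer in a CPYPP library and passed the filter there through the control. At a biological coefficient of variation of 0.2, ITPRID2-DT alone kept its call in both lines. The shares of all genes called in both lines were not counted under these settings. ITPRID2-DT (chr2:181887851-181891663), beside the gene of a protein that binds IP3 receptors, had 17 counts in the MDA-MB-231 control, 0 after CPYPP, 49 in the MDA-MB-435 control and 6 after CPYPP. Both control libraries were the higher ones. With the CPYPP count set at a floor of 3 counts, it was at least 4.15-fold lower in MDA-MB-231 (exact binomial test, adjusted p = 0.000383), and it was 6.33-fold lower in the melanoma line (exact binomial test, adjusted p = 8.15e-07). ITPRID2 itself had log2 fold changes of 0.0050 and −0.26.

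HK2-DT (chr2:74832655-74833987) lies 140 bases upstream of HK2, the gene of hexokinase 2 of glycolysis, and overlaps no other gene. It had 84 and 22 counts in the MDA-MB-231 control and CPYPP libraries and 192 and 52 in the melanoma line. The CPYPP library was the lower one in each line, and the CPYPP library of MDA-MB-435 was below the control of MDA-MB-231. The fold was 0.357 (95% exact interval 0.213 to 0.577; exact binomial test, adjusted p = 2.08e-05) in MDA-MB-231 and 0.349 (0.252 to 0.477; exact binomial test, adjusted p = 2.07e-12) in the melanoma line. HK2 changed less, from 3069 to 1843 counts in MDA-MB-231 and from 1954 to 1151 in the melanoma line, log2 fold changes of −0.29 and −0.40, neither over 2-fold.

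GOT1-DT (chr10:99430915-99463259) starts 291 bases from GOT1, the gene of cytosolic aspartate aminotransferase, and overlaps no other gene. It had 71 and 18 counts in MDA-MB-231 and 114 and 39 in the melanoma line. Its fold was 0.346 (0.194 to 0.587) and 0.441 (0.298 to 0.640), with adjusted p = 6.16e-05 and 1.54e-05 by the exact binomial test. GOT1 had log2 fold changes of −0.084 and 0.056 and did not pass in either line.

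Partners with a role in chromatin and protein arginine or lysine methylation were among these pairs. PRMT5-DT (chr14:22929607-22956436), beside the main symmetric arginine methyltransferase gene, had 35 and 7 counts in MDA-MB-231 and 28 and 4 in the melanoma line, and it overlaps HAUS4 and a further gene. Its log2 fold changes were −1.87 and −2.44 (exact binomial test, adjusted p = 0.00175 and 0.000737), while PRMT5 had 0.0027 and 0.051. SUV39H2-DT (chr10:14877416-14878727), beside a histone H3 lysine methyltransferase gene, had 21 and 5 counts in MDA-MB-231 and 36 and 10 in the melanoma line. Its log2 fold changes were −1.62 and −1.48 (exact binomial test, adjusted p = 0.0396 and 0.00658).

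SUGT1-DT (chr13:52651305-52652337) went the other way from its partner, the gene of a co-chaperone of HSP90. It had 20 and 4 counts in MDA-MB-231 and 27 and 8 in the melanoma line, log2 fold changes of −1.87 and −1.39 (exact binomial test, adjusted p = 0.0290 and 0.0332). SUGT1 had 1383 and 1498 counts and 1413 and 1502 counts, log2 fold changes of 0.56 and 0.45, below 2-fold in each line and higher in the common effect given below. FMNL1-DT (chr17:45190931-45222222) went with its partner, the gene of an actin-nucleating formin, which it overlaps. FMNL1-DT had 147 and 38 counts and 19 and 3 counts, folds of 0.353 (0.240 to 0.507) and 0.204 (0.0386 to 0.692), and FMNL1 had log2 fold changes of −0.56 and −0.65.

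MVP-DT, TFIP11-DT and FGGY-DT complete the set. MVP-DT, beside the gene of the major vault protein, had 44 and 8 counts in MDA-MB-231 and 71 and 27 in the melanoma line, and it overlaps MVP, MAZ and further genes. TFIP11-DT, beside a gene for a spliceosome disassembly factor, had 82 and 30 counts and 148 and 51 counts, with folds of 0.499 (0.317 to 0.767) and 0.444 (0.317 to 0.615), the first just past 2-fold. FGGY-DT, beside a carbohydrate kinase gene, had 24 and 6 counts and 45 and 13 counts. Of the 10, ITPRID2-DT, SUGT1-DT, SUV39H2-DT, HK2-DT and GOT1-DT overlap no other annotated gene.

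**Figure D2:**
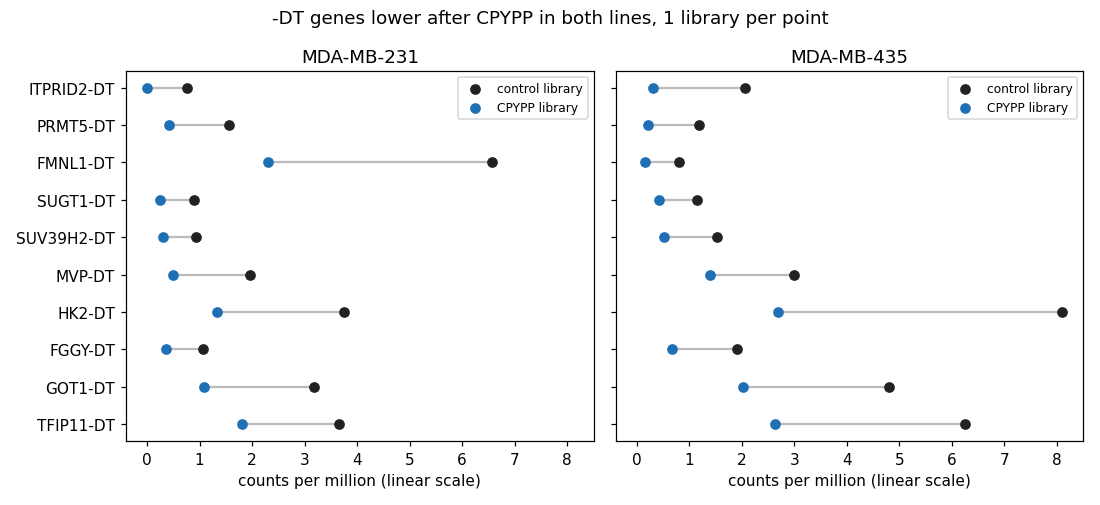
CPM, counts scaled to library size (x axis, linear from 0), of the 10 -DT genes called lower in both lines, in MDA-MB-231 (left) and MDA-MB-435 (right), with 1 library per point, the control in black and CPYPP in blue. Every CPYPP point lies left of its control point, HK2-DT has the highest control level in MDA-MB-435, and FMNL1-DT the highest in MDA-MB-231.

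A further 7 -DT genes were called lower in MDA-MB-231 alone and 20 in the melanoma line alone. Of the 20, 2 had too few counts to test in MDA-MB-231. Of all genes tested, 3.09% were lower in MDA-MB-231 and 6.52% in the melanoma line, and the share lower in 1 line alone was not counted. The 7 of MDA-MB-231 were STK4-DT, AP1AR-DT, LRRC58-DT, RFX3-DT, ATP6V0D1-DT, TNFRSF10A-DT and SMC2-DT, the last with too few counts to test in the other line. STK4-DT, beside and overlapping the gene of the Hippo kinase MST1, had 17 and 3 counts in MDA-MB-231 and 29 and 11 in the melanoma line, folds of 0.241 (0.0452 to 0.833) and 0.489 (0.220 to 1.01). AP1AR-DT, beside an adaptor regulator gene, had 21 and 4 counts and 42 and 23 counts, with log2 fold changes of −1.94 and −0.50. RFX3-DT, beside the gene of a transcription factor of ciliated cells, had 13 and 1 counts and 32 and 33 counts. Its fold of CPYPP over control in MDA-MB-231 was 0.105 without the floor of 3 counts, with a counting interval of 0.00247 to 0.699. With the floor its log2 fold change was −1.67. Whether these responses differed between the lines was not tested.

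In MDA-MB-435 the largest falls outside the set above were those of IRF2-DT, WAPL-DT and TMCC1-DT. IRF2-DT, beside the gene of an interferon regulatory factor, had 7 and 2 counts in MDA-MB-231, too few to test, and 44 and 6 in the melanoma line. It was 5.69-fold lower in MDA-MB-435 (exact binomial test, adjusted p = 8.77e-06), and IRF2 had a log2 fold change of −0.15 there. TMCC1-DT (chr3:129893811-129918578), beside the gene of an endoplasmic reticulum membrane protein, had 84 and 52 counts and 260 and 57 counts, and overlaps no other gene. Its fold was 0.845 (0.586 to 1.21) in MDA-MB-231 and 0.283 (0.208 to 0.378; exact binomial test, adjusted p = 5.48e-21) in the melanoma line. The MDA-MB-435 control was thus the one high library of the 4 for TMCC1-DT, while TMCC1 had log2 fold changes of −0.084 and 0.036.

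WAPL-DT (chr10:86521945-86525101) starts 153 bases from WAPL, the gene of the factor that releases cohesin from DNA. It had 36 and 26 counts in MDA-MB-231 and 33 and 6 in the melanoma line, and the CPYPP library of the melanoma line was the only low one. Its fold was 0.986 (0.572 to 1.68) in MDA-MB-231 and 0.234 (0.0803 to 0.567; exact binomial test, adjusted p = 0.000821) in the melanoma line. WAPL had 3533 and 4070 counts and 2486 and 3388 counts, log2 fold changes of 0.65 and 0.81.

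Each of the 8 -DT genes called higher was called in 1 line, and the difference between the lines was not tested. In MDA-MB-231 they were ATP6AP1-DT, TMEM11-DT, SMC5-DT, ECI2-DT, KDM7A-DT and APCDD1L-DT, and 5 of these 6 had 8 to 19 counts in the control library. ATP6AP1-DT, beside the gene of a proton pump accessory subunit, had 8 and 17 counts in MDA-MB-231 and 26 and 9 in the melanoma line, folds of 2.90 (1.19 to 7.76) and 0.446 (0.184 to 0.983). SMC5-DT, beside a DNA repair gene of the SMC5/6 complex and overlapping MAMDC2, had 13 and 26 counts and 16 and 9 counts, folds of 2.73 (1.35 to 5.79) and 0.725 (0.283 to 1.74). In both, MDA-MB-231 was higher after CPYPP and MDA-MB-435 was not. TMEM11-DT, beside a mitochondrial membrane protein gene, had 10 and 21 counts and 47 and 32 counts. ECI2-DT, beside a gene of fatty acid oxidation, had 11 and 22 counts and 14 and 17 counts. Of these -DT genes ECI2-DT alone had a fold above 1 in MDA-MB-435 as well, 1.57 with an interval of 0.726 to 3.43.

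APCDD1L-DT (chr20:58515379-58619888) was the only one of the 6 with many reads. It had 82 and 136 counts in MDA-MB-231 and 1692 and 1056 in the melanoma line. Both MDA-MB-435 libraries were far above both of MDA-MB-231. Its fold was 2.26 (1.71 to 3.01; exact binomial test, adjusted p = 2.38e-08) in MDA-MB-231 and 0.805 (0.745 to 0.870) in the melanoma line. It overlaps its partner APCDD1L, a relative of the WNT inhibitor APCDD1, which had 407 and 355 counts and 1057 and 547 counts.

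In MDA-MB-435, LYPLAL1-DT and EPM2A-DT were the 2 called higher. LYPLAL1-DT (chr1:218976672-219173961), beside the gene of a lysophospholipase-like enzyme, had 44 and 47 counts in MDA-MB-231 and 65 and 168 in the melanoma line, and only the CPYPP library of the melanoma line stood apart. Its fold was 1.46 (0.946 to 2.25) in MDA-MB-231 and 3.33 (2.49 to 4.51; exact binomial test, adjusted p = 1.79e-17) in the melanoma line. LYPLAL1, which it overlaps, had the opposite sign, from 425 to 208 counts and from 257 to 160, log2 fold changes of −0.58 and −0.32, and did not pass. EPM2A-DT, named for the gene of the glycogen phosphatase laforin, had 34 and 47 counts and 30 and 51 counts, folds of 1.89 (1.19 to 3.03) and 2.19 (1.37 to 3.56), both with intervals above 1. Its annotated start lies 63386 bases from that of EPM2A, and it overlaps FBXO30 and SHPRH. The study lists FBXO30 among the genes that CPYPP raised in both lines. Whether reads of FBXO30 add to the counts of EPM2A-DT was not tested.

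Over both lines, 5 of 186 -DT genes changed in the common effect and all 5 were lower. This fit of edgeR's quasi-likelihood test took all 4 libraries with the line as a block, which left 1 residual degree of freedom. Its error comes from the spread between the responses of the lines, with each gene's value drawn toward the trend over all genes tested. The SE printed for a gene is thus not its own spread between the lines alone. Lower were 2.69% of the -DT genes against 2.85% of all 16801 genes tested, and higher were 0 against 4.39%. The fit with DESeq2 also called 0 higher, and at an unadjusted p under 0.05 edgeR had 29 lower and 2 higher, and DESeq2 21 and 1. The median common log2 fold change was −0.41, against −0.042 over all genes tested, and 148 of the 186 values were below 0. Without the line block 0 of the -DT genes and 0 of all 16801 genes passed in edgeR, and 0 of the -DT genes had an unadjusted p under 0.05.

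HK2-DT had a common log2 fold change of −1.55 ± 0.336 (SE; edgeR quasi-likelihood test, adjusted p = 0.0219). SH3TC2-DT, beside the gene of an endosomal protein of Schwann cells, had 69 and 33 counts in MDA-MB-231 and 433 and 122 in the melanoma line and a value of −1.18 ± 0.293 (edgeR, adjusted p = 0.0373). C2orf74-DT had 96 and 44 counts and 625 and 251 counts and a value of −0.90 ± 0.217 (edgeR, adjusted p = 0.0341). In these 3 the CPYPP library was lower in each line, and SH3TC2-DT and C2orf74-DT were far higher in MDA-MB-435 than in MDA-MB-231. ZNF584-DT, beside and overlapping a zinc finger gene, had 455 and 215 counts and 250 and 95 counts and a value of −0.86 ± 0.209 (edgeR, adjusted p = 0.0354). ITPRID2-DT was the fifth (edgeR, adjusted p = 0.0313), and its fitted value is no bound because of the count of 0.

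Of 184 partners tested for the common effect, 22 were higher and 10 lower, 12% and 5.43%, against 4.39% and 2.85% of all genes tested. Over all 184 the median was 0.021 and 89 values (48.4%) were below 0. The 22 were ZFAND2A, MRNIP, ADM, MAFG, KDM7A, DUSP5, OSER1, RBM33, EIF2AK3, INSIG1, GARS1, LRRC8C, WAPL, NIPBL, ZNF778, CHD1, DNAJC3, STX5, TMEM263, SUGT1, WASL and OSMR. Several are known from stress responses: ZFAND2A is an arsenite- and heat-inducible proteasome cofactor, EIF2AK3 is the endoplasmic reticulum stress kinase PERK, DNAJC3 is its co-chaperone inhibitor, and MAFG is a DNA-binding partner of NRF2. The -DT genes beside the 22 had a median log2 fold change of −0.15 over 22 pairs in MDA-MB-231 and −0.47 over 21 pairs in the melanoma line, while the partners, chosen for their rise, had 0.71 and 0.85. Of these -DT genes KDM7A-DT was called higher, in MDA-MB-231, and 1 of 22 was called lower there and 4 of 21 in the melanoma line. The lower calls are to be read against 10.1% and 16.9% of all -DT genes tested and 3.09% and 6.52% of all genes tested. In MDA-MB-231, 3.55% of all -DT genes and 4.22% of all genes tested were called higher. A difference from the other -DT genes was not tested.

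The partner was called higher in both lines for ZFAND2A, MRNIP, MAFG and KDM7A, and lower in both for none. ZFAND2A had 296 and 2840 counts in MDA-MB-231 and 163 and 4242 in the melanoma line, log2 fold changes of 3.71 and 5.07. ZFAND2A-DT (chr7:1160374-1165607) had 68 and 27 counts and 75 and 69 counts, and it overlaps ZFAND2A at the start. Its fold was 0.542 (0.334 to 0.858) in MDA-MB-231 and 1.19 (0.843 to 1.67) in the melanoma line, so it was lower in 1 line by less than 2-fold and not distinguishable from 1 in the other. The ratio of ZFAND2A-DT to ZFAND2A counts after CPYPP was 0.0415 (95% exact interval 0.0251 to 0.0668) of that in the control in MDA-MB-231 and 0.0354 (0.0242 to 0.0517) in the melanoma line.

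MAFG had 1601 and 2955 counts and 1657 and 3090 counts, log2 fold changes of 1.33 and 1.27. MAFG-DT (chr17:81927829-81930753), which starts 94 bases away and overlaps no other gene, had 55 and 40 counts and 75 and 42 counts. Its fold was 0.993 (0.644 to 1.52) and 0.722 (0.483 to 1.07), and both intervals include 1. MRNIP, the gene of a DNA repair protein, rose 3.21-fold and 2.82-fold, and MRNIP-DT, with 19 and 15 counts and 30 and 10 counts, had folds of 1.08 (0.510 to 2.24) and 0.430 (0.187 to 0.903). KDM7A, a histone demethylase gene, had log2 fold changes of 1.20 and 1.15. KDM7A-DT, with 19 and 35 counts and 25 and 17 counts, rose with it in MDA-MB-231, at 1.33 (exact binomial test, adjusted p = 0.00406), and had −0.19 in the melanoma line.

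**Figure D3:**
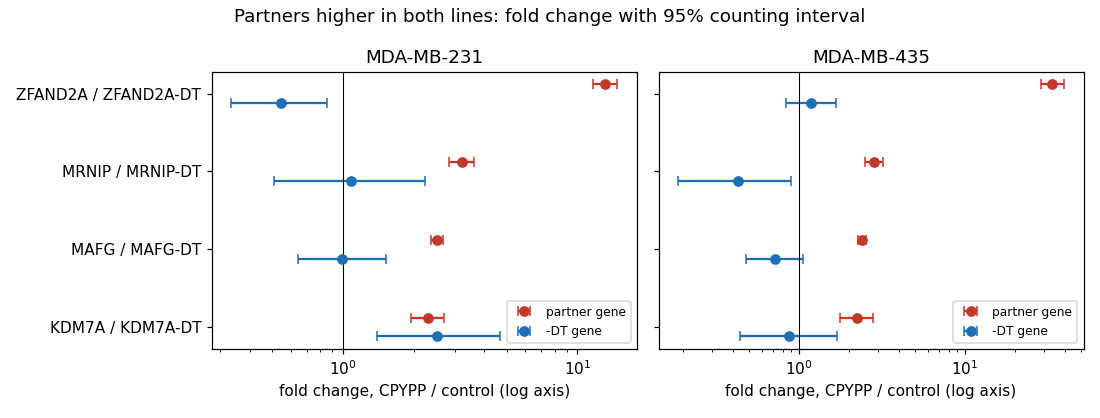
Fold change of CPYPP over control (x axis, log scale) with its 95% exact counting interval for the 4 partners called higher in both lines (red) and their -DT genes (blue), in MDA-MB-231 (left) and MDA-MB-435 (right). All partner points lie above 2-fold, and KDM7A-DT in MDA-MB-231 is the only -DT gene near its partner.

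Genes of endoplasmic reticulum stress and sterol sensing had smaller changes. EIF2AK3 had log2 fold changes of 0.91 in MDA-MB-231 and 0.86 in the melanoma line, and EIF2AK3-DT, which overlaps it, had 18 and 26 counts and 41 and 36, with 0.98 and 0.18. DNAJC3 had 2018 and 2030 counts and 1823 and 2235, log2 fold changes of 0.46 and 0.66, and DNAJC3-DT had 24 and 14 counts and 73 and 38, log2 fold changes of −0.33 and −0.58. INSIG1, which holds the SREBP activator in the endoplasmic reticulum, had log2 fold changes of 0.63 and 1.06, and INSIG1-DT, with 23 and 15 counts and 107 and 57, had −0.17 and −0.54. None of these 3 -DT genes passed in either line. ADM, the gene of the peptide adrenomedullin, had log2 fold changes of 2.03 and 0.89, and ADM-DT, which overlaps SBF2, had 22 and 14 counts and 22 and 24, with −0.20 and 0.49.

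Of the 10 partners lower in the common effect, TRIM8 and GAS6 have -DT genes among the most abundant. TRIM8, a ubiquitin ligase gene, had 2798 and 1341 counts and 1376 and 658 counts, and TRIM8-DT had 213 and 104 and 129 and 67. Here gene and -DT transcript had similar values, with log2 fold changes of −0.61 and −0.70 for TRIM8 and −0.59 and −0.58 for TRIM8-DT. The ratio of TRIM8-DT to TRIM8 was 1.02 (0.791 to 1.31) and 1.09 (0.784 to 1.49) of the control's. GAS6-DT had 210 and 137 counts and 378 and 168 counts, log2 fold changes of −0.17 and −0.80, and GAS6 had −0.49 and −0.33.

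Across all pairs, -DT gene and partner changes were only weakly related. Pearson's r was 0.080 and Spearman's rho 0.10 over 169 pairs in MDA-MB-231, and 0.11 and 0.12 over 176 pairs in the melanoma line. The points of a line share 2 libraries. Many -DT genes have low counts, and the part of depth in these correlations was not tested. The -DT gene had the lower log2 fold change in 109 of 169 pairs (64.5%) in MDA-MB-231 and in 148 of 176 (84.1%) in the melanoma line, with median differences of −0.31 and −0.69. The ratio of counts within a library needs no library size. It fell in 45 pairs and rose in 12 in MDA-MB-231, by intervals that leave out 1, and fell in 96 and rose in 8 in the melanoma line. Over 2-fold it fell in 27 (16.0%) and rose in 8 (4.73%) of the 169 pairs in MDA-MB-231, and fell in 55 (31.2%) and rose in 4 (2.27%) of the 176 in the melanoma line. In the 65 and 69 pairs whose -DT gene overlaps no other gene, the median differences were −0.41 and −0.78. These shares and differences have no baseline, since no other noncoding genes were paired with coding genes. The -AS and LINC medians given above also lay below the median of all other genes, in each line. Whether the lower ratios are particular to divergent pairs was thus not tested.

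**Figure D4:**
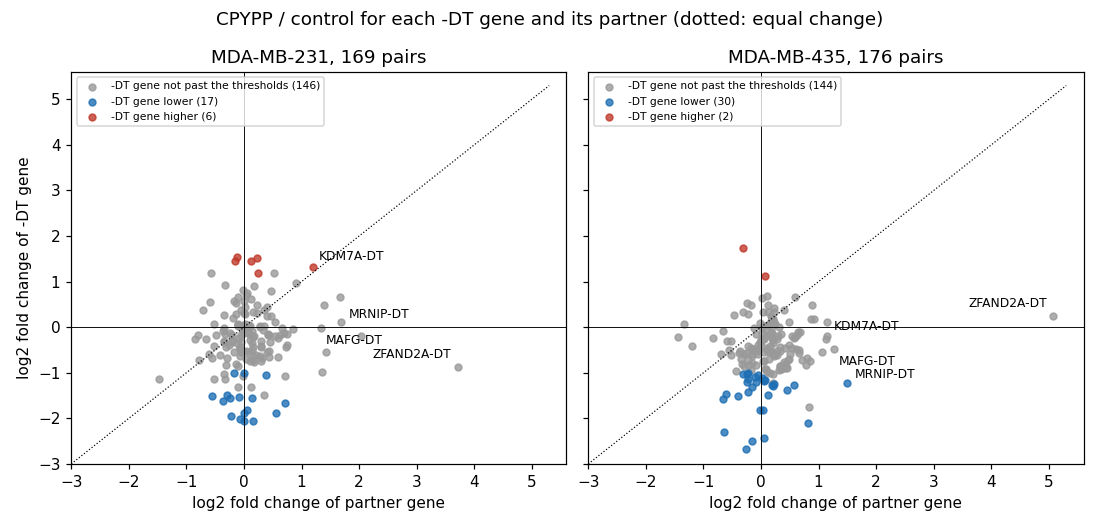
Log2 fold change of CPYPP over control for each -DT gene (y axis) against its partner (x axis), 169 pairs in MDA-MB-231 (left) and 176 in MDA-MB-435 (right), with -DT genes called lower in blue and higher in red and the line of equal change dotted. Most points lie below the dotted line, and ZFAND2A stands alone at the right, at 3.71 and 5.07, with its -DT gene at −0.88 and 0.25.

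The partners of the -DT genes called lower had medians near 0. The 17 pairs of MDA-MB-231 had a median partner log2 fold change of 0.00070, and the 30 pairs of the melanoma line one of −0.072. The ratio was most reduced in MDA-MB-231 for ITPRID2-DT, ZFAND2A-DT, RFX3-DT, SUGT1-DT and FAM151B-DT, and in the melanoma line for ZFAND2A-DT, WAPL-DT, MRNIP-DT, TMEM263-DT and PRMT5-DT. TMEM263-DT had 38 and 18 counts and 13 and 3 counts beside TMEM263 at 3529 and 3133 and 1773 and 2443. FAM151B-DT had 27 and 10 counts and 48 and 25 counts beside FAM151B at only 25 and 47 and 20 and 13.

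The ratio rose most in MDA-MB-231 for CCNO-DT, ATP6AP1-DT, ECI2-DT, SMC5-DT and TMEM11-DT, and in the melanoma line for LYPLAL1-DT, WDR5B-DT, FZD4-DT, EPM2A-DT and ZDHHC12-DT. For WDR5B-DT and FZD4-DT it was the partner that was called lower, in the melanoma line. FZD4, the gene of a WNT and norrin receptor, had 859 and 245 counts there, a log2 fold change of −1.44, and FZD4-DT had 21 and 14, −0.22. WDR5B, a relative of the histone methylation scaffold WDR5, had 314 and 96 counts, −1.34, and WDR5B-DT had 27 and 22, 0.071.

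Grouped by what the partners are annotated to do, each of the 7 groups had a -DT median below 0 in both lines. A partner may be in several groups. The counts of -DT genes called lower below are to be read against 10.1% and 16.9% of all -DT genes tested and 3.09% and 6.52% of all genes tested, and no difference between the groups was tested. In the 7 pairs of heat and unfolded protein genes (ATF6, DNAJC3, EIF2AK3, NCK1, SLC12A2, SUGT1 and TMED2), the -DT medians were −0.22 in MDA-MB-231 and −0.41 in the melanoma line, with SUGT1-DT called lower in each, and the partner medians 0.22 and 0.45, none of them called. Of 41 pairs of transcription genes, 3 of 38 -DT genes tested were lower in MDA-MB-231 and 7 of 37 in the melanoma line, with medians of −0.19 and −0.56. Among cell cycle and DNA genes, 4 of 32 and 8 of 32 were lower, with medians of −0.30 and −0.59. Among membrane transport and signalling genes 6 of 36 and 10 of 40 were lower, with medians of −0.24 and −0.66.

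Among ubiquitin genes 1 of 24 -DT genes was lower in MDA-MB-231 and 3 of 25 in the melanoma line, with medians of −0.39 and −0.51. Among translation and RNA genes it was 2 of 23 and 5 of 27, with −0.17 and −0.58, and among mitochondrial genes 2 of 21 and 3 of 24, with −0.14 and −0.27. Called higher were 2 of 21 and 1 of 24 -DT genes in the mitochondrial group and 1 of 32 in each line in the cell cycle and DNA group. In membrane transport and signalling it was 1 of 36 and 1 of 40. Transcription genes had 1 of 38 in MDA-MB-231, and ubiquitin genes 1 of 25 in the melanoma line. These are to be read against 3.55% and 1.12% of all -DT genes tested and 4.22% and 3.17% of all genes tested.

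Without CPYPP, the lines differed in the -DT genes they expressed. Between the control libraries 73 of 187 were higher in MDA-MB-435 and 23 in MDA-MB-231, 39.0% and 12.3%, against 22.2% and 20.9% of all 18269 genes tested, or 96 in either direction, against 43.1% of all genes. Of all other genes with a summed count of 50 or more, 19.7% and 19.8% were called. The sum that chose the -DT genes includes these control libraries. A gene high in 1 line could thus enter through that line alone, as LHX1-DT, MAGEA6-DT and TOX-DT below did, so these counts partly follow from the choice. The median log2 ratio of MDA-MB-435 to MDA-MB-231 was 0.68 for the -DT genes, −0.065 for their partners and 0.011 for all genes tested, and it was 0.38 for -AS and 0.60 for LINC genes. Among the partners, 25 were higher in MDA-MB-435 and 23 in MDA-MB-231.

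At the MDA-MB-435 end stood LHX1-DT, PKD2L2-DT, MAGEA6-DT, ZNF747-DT and APCDD1L-DT. LHX1-DT, beside a LIM homeobox gene, had 0 and 0 counts in MDA-MB-231 and 197 and 129 in the melanoma line, and its control level was at least 61.3-fold higher in the melanoma line with a floor of 3 counts per library. LHX1 followed the same pattern, with 0 and 0 counts and 172 and 75. MAGEA6-DT, beside a cancer-testis antigen gene on the X chromosome, had 0 and 0 counts and 103 and 70, and MAGEA6, whose reads may be shared with near-identical genes of its family, had 9 and 4 counts and 2973 and 2440. In contrast, PKD2L2-DT had 1 and 0 counts and 162 and 109, while PKD2L2 had 4 counts in every library. Without the floor of 3 counts, the control ratio of PKD2L2-DT was 151 with a counting interval of 26.7 to 6006. PKD2L2-DT also overlaps MYOT and NPY6R.

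At the MDA-MB-231 end stood EDIL3-DT, ZNF132-DT, SMC2-DT, TOX-DT and RNF32-DT. EDIL3-DT, which overlaps the gene of an integrin ligand, had 252 and 113 counts in MDA-MB-231 and 2 and 4 in the melanoma line, and EDIL3 had 8076 and 6062 counts and 1 and 0. SMC2-DT, beside a condensin subunit gene, had 146 and 53 counts and 4 and 0, whereas SMC2 had 5721 and 3717 counts and 4116 and 3130. SMC2-DT was thus close to 0 in the melanoma line beside a partner with many reads in both. TOX-DT had 93 and 51 counts and 0 and 0, beside TOX, an HMG box gene, at 451 and 230 counts and 36 and 44.

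**Figure D5:**
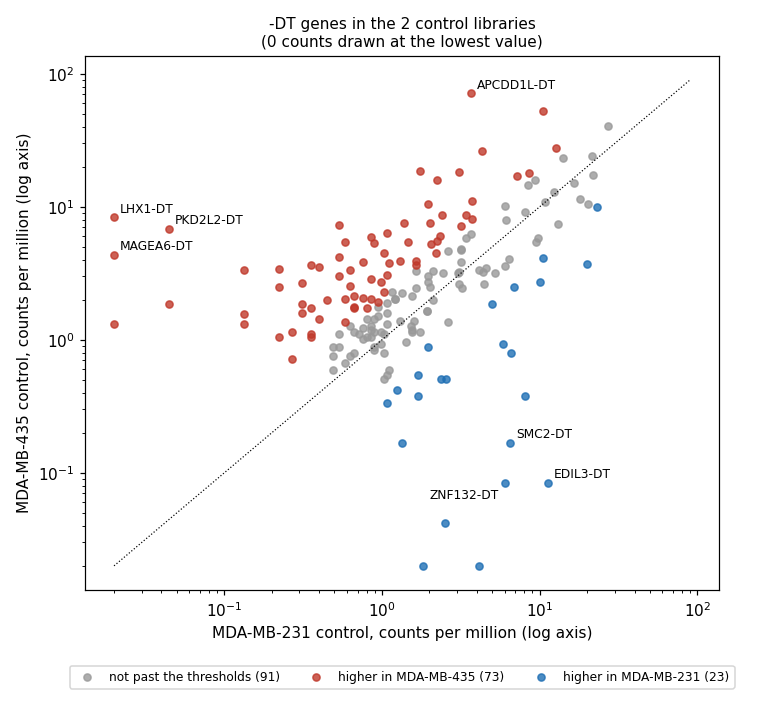
CPM (counts scaled to library size) of the 187 -DT genes in the MDA-MB-435 control (y axis, log scale) against the MDA-MB-231 control (x axis, log scale), with genes at 0 drawn at the lowest value of the axis. Of the points, 73 are called higher in MDA-MB-435 (red) and 23 in MDA-MB-231 (blue), with LHX1-DT and MAGEA6-DT at the left edge and EDIL3-DT at the lower right.

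The responses of the lines to CPYPP were more alike for the partners than for the -DT genes. Over 160 -DT genes tested in both lines, Pearson's r between the log2 fold changes of the lines was 0.36 and Spearman's rho 0.31, and over 180 partners 0.76 and 0.66. The -DT genes have fewer counts, and the part of depth in this gap was not tested. Of the 160, 87 were below 0 in both lines, 13 above 0 in both, 40 above 0 in MDA-MB-231 alone and 20 above 0 in the melanoma line alone.

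At the limit of 50 summed counts, the genes just inside were CCNO-DT at 50, PPP4R3B-DT at 51 and FZD4-DT at 52, and those just outside were JTB-DT at 49 and MAD2L1-DT and ZRANB2-DT at 48. MAD2L1-DT, beside a spindle checkpoint gene, had 14 and 2 counts in MDA-MB-231 and 28 and 4 in the melanoma line. CCNO-DT, beside the gene of a cyclin of multiciliated cells and overlapping DHX29, had 6 and 10 counts and 27 and 7.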

How the data were processed

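RNA-seq libraries of poly(A)-selected RNA from 4 samples, 1 per line and treatment, were deposited by the authors as raw counts per gene, without normalization, in 1 table. Per the labels, cutadapt 1.9.1, HISAT2 2.2.1, HTSeq 0.6.1 and DESeq2 were among the tools, with build GRCh37.p13. The positions in the deposited table are those of GRCh38, since 58241 of 58254 gene IDs shared with GENCODE v29 overlap its positions there, and these are the coordinates given. The strand setting of the counting was not given in the sources used here. The -DT genes, gene lists and comparisons were chosen with earlier results of these data known.

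Within a line, each gene that reached 10 counts in 1 of the 2 libraries or in both was tested with a two-sided exact binomial test on the reads, with effective library sizes by TMM (edgeR 4.0.16, R 4.3.3), and p-values were adjusted by Benjamini-Hochberg over all genes tested. A gene was called at a fold over 2 and an adjusted p under 0.05, the thresholds of the study. Counts below 3 were set to 3 for the fold change. The test compares 2 libraries, and intervals (95%, Clopper-Pearson or exact conditional for ratios of counts) and floors cover counting error only. The common effect used edgeR's quasi-likelihood test on all 4 libraries, blocked by line (filterByExpr, 16801 genes, biological coefficient of variation 0.121), and DESeq2 1.42.0 was an alternative. CPM and RPKM were computed from the counts and the effective library sizes by TMM over all 4 libraries. RPKM also used the summed exon length in the deposited table.

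Named are -DT genes called in both lines, in each line the 6 called with the largest rise and fall, the 8 most abundant, in each line the 5 pairs whose ratio rose and fell most, those whose partner is called in both lines, the 5 furthest to each side between controls, and the 3 on each side of the limit of 50. The -DT genes with a common effect, those beside partners with a common effect and the further -DT genes lower in 1 line were added after their values were seen. A gene that this rule names and a marker gene are not reported here. Partners were grouped by the gene ontology names in the deposited table. Motif matches were searched on both strands. The tests were tried on simulated data. Python 3.11.15 with scipy 1.17.1 was used.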

Additional observations from a re-analysis of the deposited data

Results flagged for a closer look

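In APCDD1L-DT and NUP50-DT the 2 lines went opposite ways after CPYPP, each by more than counting error, with 1 library per group, and the difference between the lines was not tested. APCDD1L-DT had a log2 fold change of 1.18 in MDA-MB-231 but −0.31 in the melanoma line. NUP50-DT, beside the gene of a nuclear pore protein, had 234 and 221 counts in MDA-MB-231 and 98 and 42 in the melanoma line, log2 fold changes of 0.37 and −0.86, while NUP50 had 0.34 and 0.33.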

How the results depend on the processing

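No paired analysis was possible because each group has 1 library, and the line was the only block. The direction of the median, below 0 in both lines, was the same under every scaling, filter and subset tried. In MDA-MB-435 the median was −0.66 with total counts and −0.62 with the upper quartile. The counts of calls moved most with the assumed variation between libraries, for which the data hold no replicate. For the calls within a line, the shares of all genes were not counted under these settings. In MDA-MB-231 the 17 lower and 6 higher calls became 8 and 1 at a biological coefficient of variation of 0.1, 1 and 0 at 0.2, and 0 and 0 at 0.4. In MDA-MB-435 the 30 lower and 2 higher became 19 at 0.1, 4 and 1 at 0.2, and 0 and 0 at 0.4. A fold over 4 left 3 lower and 0 higher in MDA-MB-231 and 5 and 0 in the melanoma line. A fold over 2 with no test gave 26 lower in MDA-MB-231, and at least 10 counts in both libraries left 6 lower and 5 higher there. Total counts gave 46 lower and 1 higher in MDA-MB-435. A summed count of 100 or more left 8 lower and 2 higher in MDA-MB-231, with 19 lower in the melanoma line, and the -DT genes overlapping no other gene held 7 and 2 and 15 and 0, as subsets of the list.

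Of the pairs whose ratio fell over 2-fold (27 in MDA-MB-231, 55 in the melanoma line), 15 and 33 were left at a summed count of 100 or more and 12 and 28 without overlaps, and 45 and 96 fell by any size. With at least 10 counts in both libraries 14 were left in MDA-MB-231. Of the pairs whose ratio rose (8 and 4), 3 and 2 were left at a summed count of 100 or more and 2 and 1 without overlaps, and 8 rose by any size in MDA-MB-435. The correlation of -DT gene and partner moved with the choice of pairs. With at least 50 counts, Spearman's rho was 0.22 in MDA-MB-231 and 0.26 in the melanoma line, and Pearson's r was 0.049 and 0.20. Without overlaps Pearson's r was 0.22 in MDA-MB-231 and −0.092 in the melanoma line, and rho was 0.15 and −0.064. Of the 96 calls between controls, 39 were without overlaps, 34 held at a coefficient of 0.4 and 51 at a fold over 4. The 5 common calls became 17 with total counts, 11 with DESeq2's size factors, 10 with a filter of 10 counts over the 4 libraries, 12 with DESeq2, which left 108 adjusted p-values undefined, 2 without overlaps and 0 without the line block. Depth limits single -DT genes: MRNIP-DT, with 19 and 15 counts in MDA-MB-231, had a fold interval of 0.510 to 2.24, so changes under 2-fold were not detectable at such counts.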
